A study of Mus musculus with 4 samples.

Results

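Thrombospondins and their matricellular relatives are secreted proteins that sit in the extracellular matrix and act on cells through surface receptors more than as structural fibres. The 10 genes described here were chosen by name, with earlier results of these data known. They are the thrombospondins Thbs1, Thbs2, Thbs3 and Thbs4, the receptor Cd47, fibronectin (Fn1), tenascin C (Tnc), periostin (Postn), Sparc and its relative Sparcl1. Each had 1 row in every file, and the 10 are part of 23238 gene symbols counted. They were followed in 4 RNA sequencing libraries of cultured mouse cells taken from corpus cavernosum tissue. The labels call them cavernous endothelial cells, the lining cells of the blood spaces of the penis. All cells received glucose for 72 hours, 2 libraries at a level the labels call normal (replicates 1 and 2) and 2 at a level they call high (replicates 2 and 4). Every culture grew in medium 199 that held fetal bovine serum (20%), heparin (0.5 mg/ml) and antibiotics. The labels give no strain, age, sex or glucose concentration, and nothing in them says that replicates were separate cultures or animals. P-values thus reflect variation among the 4 libraries alone, and that variation may be technical.

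Thrombospondins 1 and 2 form trimers, carry the type 1 repeats and inhibit the growth of new vessels, in part through the receptor CD36. Thrombospondins 3 and 4, like cartilage oligomeric matrix protein (Comp), form pentamers and lack those repeats. Thrombospondin 1 also binds CD47, through which it restrains nitric oxide and cGMP signalling, the pathway of erection, and it can activate latent TGF-beta. Fibronectin is the main adhesive glycoprotein of the matrix and binds cells through the integrin of the Itga5 and Itgb1 chains. Tenascin C and periostin are made during wound repair and tissue remodelling, and SPARC binds collagen and loosens cell adhesion.

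Library totals ran from 46571770 to 74971589 counts. Levels are given in CPM, the count relative to the TMM-scaled size of its library. Normal glucose replicate 2 stood apart: its correlation with the other 3 libraries (Pearson, log2(CPM + 1), across genes) was 0.9849 to 0.9859, against 0.9926 to 0.9949 among those 3. Genes are not independent replicates, so these values describe the libraries. The endothelial label was checked against 12 markers, and 8 of them had a mean under 1 CPM. The endothelial list summed to 45.5 and 61.5 CPM in normal glucose replicates 1 and 2, and to 37.6 and 42.2 CPM in high glucose replicates 2 and 4. Its Cldn5 had 0 counts in 3 libraries and 2 counts in high glucose replicate 4, and 0 counts allow up to 3, or 0.0423 to 0.0688 CPM in those 3 libraries. Pecam1 lay between 2.32 and 3.58 CPM and Cdh5 between 4.61 and 6.56 CPM, and Esam, the highest of the list, between 25.6 and 46.1 CPM. The 10 fibroblast markers summed to 9602 to 11516 CPM, led by Dcn (5070 to 7598 CPM) and Col1a1 (1215 to 2941 CPM). These markers thus did not bear out the endothelial label, and the levels given below cannot be assigned to endothelial cells. The endothelial sum was lower in both high glucose libraries through Esam: the other 11 genes summed to 12.3 and 15.4 CPM in normal and 11.9 and 12.3 CPM in high glucose, which overlap. The epithelial sum was lower in both high glucose libraries too (15.9 and 14.2 against 7.05 and 6.81 CPM), most of it Krt19. The sums of the fibroblast, pericyte and smooth muscle (554 to 771 CPM, led by Acta2 and Cspg4), macrophage and leukocyte (38.6 to 51.5 CPM, led by Cd68 and Adgre1), Schwann cell (5.07 to 8.42 CPM) and platelet lists (18.0 to 23.8 CPM, led by Pf4 and Ppbp) overlapped between the groups. Within the pericyte and smooth muscle list, 3 of 12 genes were higher and 4 lower in high glucose without overlap (16.3% and 16.2% of all genes). The part of cell mixture in the results below was not tested, and in bulk samples fewer cells of a type and less RNA per cell cannot be told apart.

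Sequence just before the gene start was compared among thrombospondins because Thbs2 was lower, and Thbs3 and Thbs4 higher, in both high glucose libraries. None of these differences passed the test given below, and 32.5% of all genes also had groups without overlap. The RefSeq promoter table (GRCm38.p6) held 7 of the 10 members: Thbs2, Thbs3, Thbs4, Cd47, Tnc, Postn and Sparc. Thbs1 was not in it and could not be compared. The 250 bases before each start follow, 5′ to 3′ on the gene's strand, with capitals for matches, on either strand, to the GC box GGGCGG, the TATA box TATAAA or the TEAD site GGAATG. The windows are chr17:14694263-14694512 on the minus strand for Thbs2, chr3:89214930-89215179 on the plus strand for Thbs3 and chr13:92794819-92795068 on the minus strand for Thbs4.
Thbs2: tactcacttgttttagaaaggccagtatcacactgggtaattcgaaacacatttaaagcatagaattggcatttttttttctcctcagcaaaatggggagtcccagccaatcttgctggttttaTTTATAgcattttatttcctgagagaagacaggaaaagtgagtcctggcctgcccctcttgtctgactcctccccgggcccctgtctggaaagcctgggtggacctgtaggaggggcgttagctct
Thbs3: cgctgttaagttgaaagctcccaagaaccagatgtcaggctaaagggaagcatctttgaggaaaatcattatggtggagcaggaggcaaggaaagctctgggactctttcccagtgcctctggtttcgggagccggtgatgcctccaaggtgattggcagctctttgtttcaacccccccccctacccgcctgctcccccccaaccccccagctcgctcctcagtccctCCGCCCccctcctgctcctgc
Thbs4: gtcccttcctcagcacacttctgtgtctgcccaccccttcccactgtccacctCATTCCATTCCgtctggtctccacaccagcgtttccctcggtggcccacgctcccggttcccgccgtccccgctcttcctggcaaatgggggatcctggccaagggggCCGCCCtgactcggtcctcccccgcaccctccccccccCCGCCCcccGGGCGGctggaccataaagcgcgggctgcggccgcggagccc
The Thbs2 window was 46.8% G and C, the Thbs3 window 58.8% and the Thbs4 window 70.8%, against a median of 52.4% over 32851 promoter windows. Thbs4 held 3 GC boxes and Thbs3 held 1, while no GC box letters were found in the Thbs2 window. The GC box was present in 32.7% of all windows. Thbs4 also had 2 TEAD matches that overlap by a base (12.6% of windows have any), and Thbs2 had 1 TATA match on the opposite strand, 126 bases before the start (12.4% of windows). Of the other members, Cd47 had 2 GC boxes, Postn had a TATA match 26 bases before a start, and Tnc had 1 GC box and 1 TATA match. The E-box CACGTG (6.02% of windows), the AP-1 site TGANTCA (6.75%) and the CArG box (1.47%) were not matched in any window of the 7 members. A match describes letters and is neither a shown binding site nor a cause.

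Compared per length, as CPM per kilobase of exon, fibronectin led the members. Fn1 had 1105 and 1894 CPM per kilobase in normal and 1146 and 1223 in high glucose, which placed it between rank 21 and rank 34 of 15577 genes with a length. Thbs1 came next, with 970 and 956 CPM per kilobase in normal and 637 and 614 in high glucose (rank 38 to 70), followed by Sparc with 442 to 554 (rank 77 to 98). These 3 genes thus lay near the top of the transcriptome in every library. Tnc had 69.0 to 81.1 CPM per kilobase, Thbs2 31.9 to 36.6 and Cd47 25.1 to 30.04. Thbs4 followed with 8.67 to 11.4, then Sparcl1 with 5.44 to 7.73, Thbs3 with 3.24 to 4.39 and Postn with 0.347 to 0.535 (rank 11875 to 12689). No neighbours in this order overlapped across the 4 libraries. With the longest transcript as the length, Sparc came above Thbs1 (means of 834 and 825 CPM per kilobase), so their order rests on the length chosen. Together the 10 genes took 2.28% and 2.92% of all counts in normal glucose and 1.98% and 2.17% in high glucose.

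**Figure D1:**
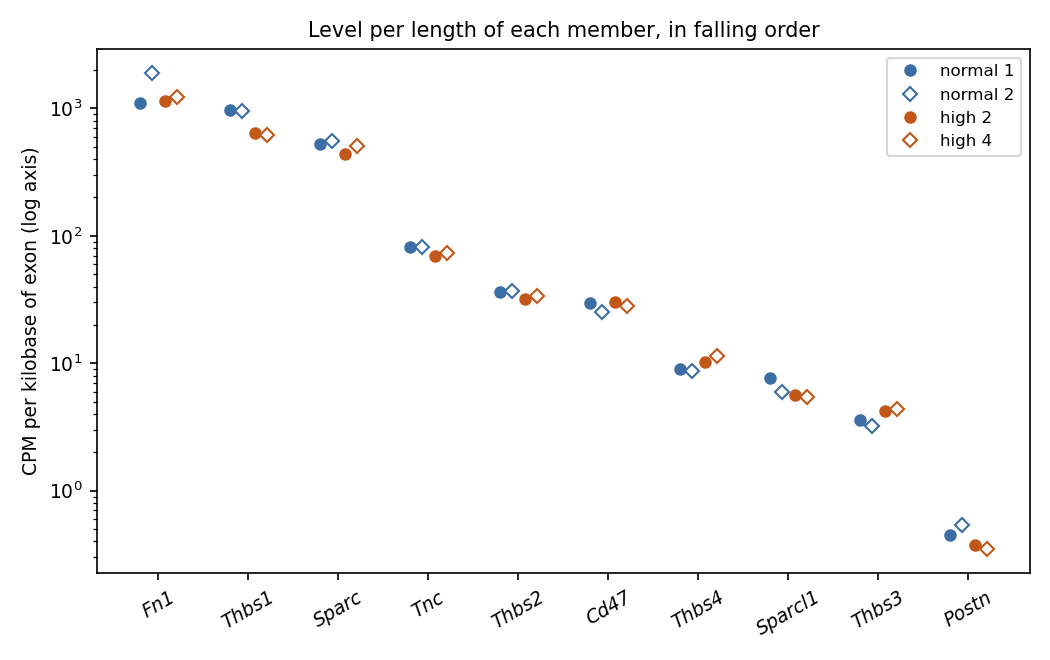
Level per length (CPM per kilobase of exon, log axis) of the 10 genes in each library, blue for normal and orange for high glucose, filled and open for the 2 libraries of a group. Fn1, Thbs1 and Sparc sit far above the rest and Postn lies below 1.

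High against normal glucose was tested with edgeR's quasi-likelihood test over all 16270 genes that passed the filter on low counts, which all 10 members did. None of the 10 was called at an adjusted p under 0.05, a threshold that 0.0123% of all genes tested passed. At an unadjusted p under 0.05 there was 1 member, Thbs1, against 5.45% of all genes. DESeq2 (0.379% of all genes called), edgeR's exact test (0.688%), limma-voom (0.0123%) and the fit with no filter on low counts (0.626%) called 0 of the 10 too. The groups did not overlap for 8 of the 10, against 32.5% of all genes. Of these 8, 6 were lower and 2 higher in high glucose, where 16.2% of all genes were lower without overlap and 16.3% higher. Among these 8 members, the nearest libraries of the groups differed by a ratio of 1.499 for Thbs1. The other gaps were small, from 1.03 for Sparc to 1.205 for Postn. The median log2 fold change of the 10 was -0.19, against -0.0045 over all genes. Below 0 were 7 of the 10, against 8259 of all 16270 genes. Since the members were chosen with earlier results known, these counts describe them and do not set them apart.

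**Figure D2:**
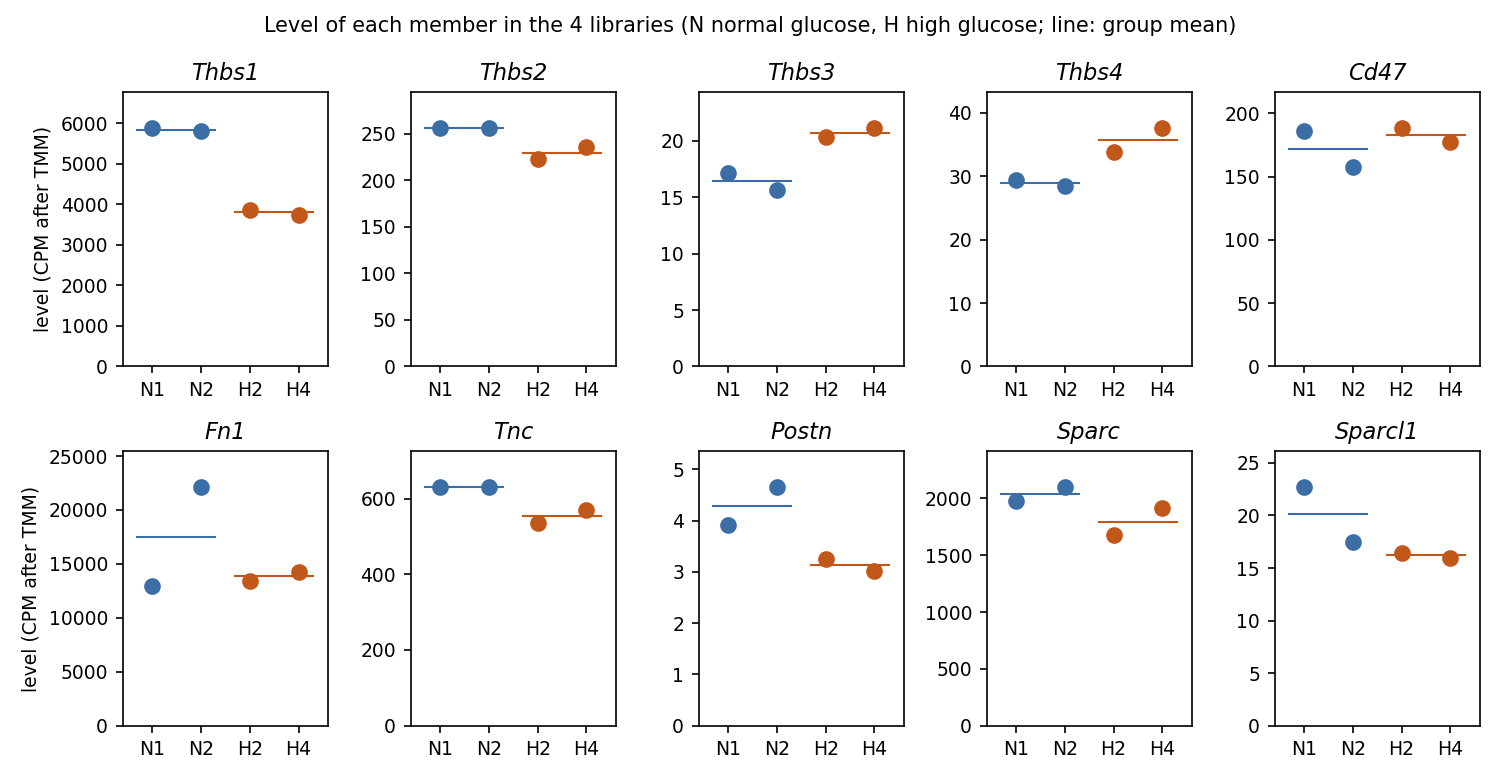
Level (CPM after TMM) of each gene in normal glucose replicates 1 and 2 (N1, N2) and high glucose replicates 2 and 4 (H2, H4), with the group mean as a line and a separate scale from 0 for each gene. The Thbs1 pairs are tight and apart, while Fn1 is high in N2 alone.

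Thbs1, the angiogenesis inhibitor and CD47 ligand (ENSMUSG00000040152.8, GRCm38 chromosome 2, 118111876 to 118127133), showed the widest separation. It had 5889 and 5803 CPM in normal glucose replicates 1 and 2, and 3870 and 3730 CPM in high glucose replicates 2 and 4. Both high glucose libraries lay below both normal ones, and within each group the libraries differed by a ratio of no more than 1.04. The means were 5846 ± 61.2 CPM and 3800 ± 98.8 CPM (SD, n = 2), a log2 fold change of -0.62 (SE 0.17), or 35.0% less on the CPM scale (a change of -35.0%). Its single-gene 95% interval, not adjusted for the number of genes, ran from -0.999 to -0.244. The unadjusted p was 0.00506, rank 154 of 16270, and the adjusted p from edgeR was 0.523, so the difference did not pass the test over all genes. Leaving out any library kept the fold change between -0.64 and -0.60. The adjusted p was 0.00801 without normal glucose replicate 1, where 16.2% of all genes were called, 0.0555 without normal glucose replicate 2, and 1 without either high glucose library. Over all alternatives it ran from 0.00801 to 1. Gm29233, a non-coding gene on the opposite strand, shares 208 exon bases with Thbs1, and the use of strand in counting is not given in the sources used here.

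Thbs2, the other trimeric thrombospondin (chromosome 17, 14665500 to 14694235), had 255.8 and 256.3 CPM in normal and 223 and 235 CPM in high glucose. It too was lower in both high glucose libraries, but by far less. The log2 fold change was -0.16 (SE 0.17, interval -0.56 to 0.24, adjusted p = 0.991, edgeR). This single-gene interval overlaps that of Thbs1 (-0.999 to -0.244), and the difference between the 2 genes was not tested. The ratio of Thbs1 to Thbs2 per length was 26.5 and 26.1 in normal and 20.0 and 18.3 in high glucose.

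The pentameric Thbs3 and Thbs4 lay the other way, while Comp, also pentameric, did not. Thbs3 (chromosome 3, 89215180 to 89226837) had 17.2 and 15.6 CPM in normal and 20.3 and 21.2 CPM in high glucose. Thbs4, found in muscle, tendon and vessel walls (chromosome 13, 92751590 to 92794818), had 29.5 and 28.5 CPM in normal and 33.8 and 37.7 CPM in high glucose. Neither gene's groups overlapped, high glucose being the higher, and neither passed the test. The log2 fold changes were 0.34 (SE 0.19, interval -0.11 to 0.78) for Thbs3 and 0.30 (SE 0.19, interval -0.12 to 0.73) for Thbs4, each with an adjusted p of 0.991 (edgeR). Thbs3 shares 318 exon bases with Mtx1 on the opposite strand, a mitochondrial import gene. Mtx1 had 30.3 and 36.4 CPM in normal and 36.6 and 34.2 CPM in high glucose, so its groups overlapped. Comp, the remaining thrombospondin, had 1.06 and 1.35 CPM in normal and 0.800 and 1.02 CPM in high glucose, from 51 to 79 counts a library, and so did not share the direction of Thbs3 and Thbs4.

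Of the summed CPM per kilobase of Thbs1 to Thbs4, Thbs1 made up 95.18% and 95.17% in normal and 93.2% and 92.6% in high glucose. The sum itself was 1019 and 1004 CPM per kilobase in normal and 684 and 664 in high glucose. The thrombospondin transcript pool was thus almost all Thbs1 in every library, and its total followed that gene. Thbs2 took 3.59% and 3.65% in normal and 4.66% and 5.06% in high glucose, and Thbs3 and Thbs4 each stayed under 1.8% in all 4 libraries.

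**Figure D3:**
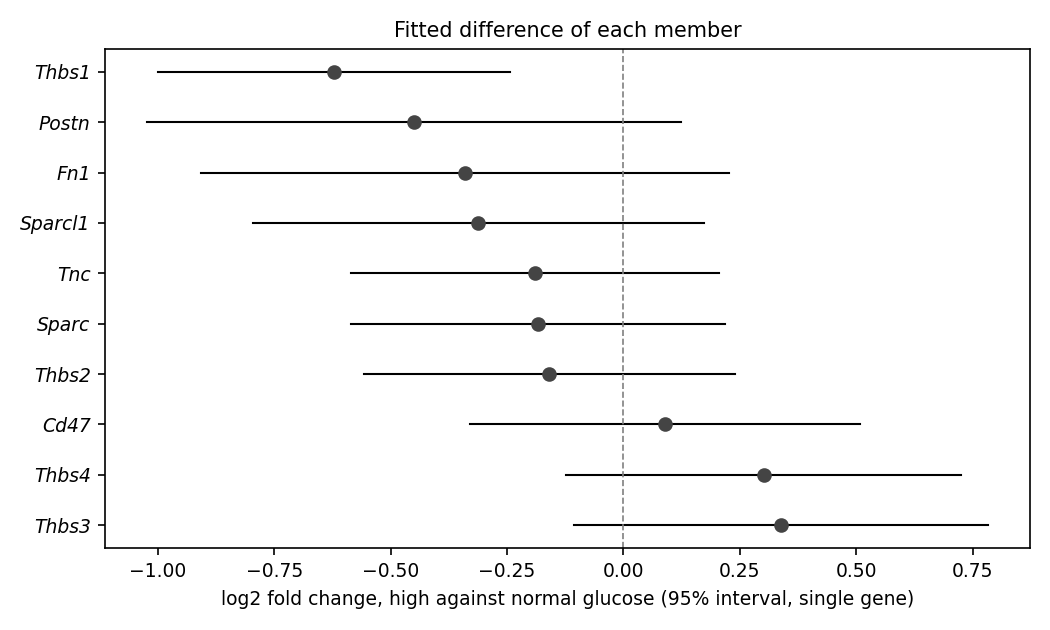
Fitted log2 fold change of each gene, high against normal glucose, with the single-gene 95% interval (edgeR, not adjusted for the number of genes). The interval of Thbs1 (-0.999 to -0.244) lies wholly below 0 and the other 9 cross it.

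Cd47, the receptor that binds thrombospondin 1 and the macrophage receptor SIRP alpha (chromosome 16, 49800533 to 49915010), had 186 and 158 CPM in normal and 189 and 177 CPM in high glucose. The groups overlapped, with the lowest value in normal glucose replicate 2. The log2 fold change was 0.09 (SE 0.18, interval -0.33 to 0.51, adjusted p = 0.991, edgeR). Without normal glucose replicate 2 it was -0.025, so no direction can be given.

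Fn1 (chromosome 1, 71585520 to 71653200), the most abundant member per length, had 12913 and 22128 CPM in normal and 13396 and 14294 CPM in high glucose. One library carried the difference: normal glucose replicate 2 was 1.71 times replicate 1 of its own group, and replicate 1 lay below both high glucose libraries. The means were 17521 ± 6516 and 13845 ± 635 CPM (SD, n = 2), a log2 fold change of -0.34 (SE 0.25, interval -0.91 to 0.23, adjusted p = 0.991, edgeR). Without normal glucose replicate 2 the fold change was 0.10 (adjusted p = 0.951), and without replicate 1 it was -0.68 (adjusted p = 0.00215, in a fit that called 16.2% of all genes). In each of these fits the lone normal glucose library is assumed to vary as the high glucose pair does. The direction of Fn1 thus depended on which normal glucose library was kept, and over all alternatives the adjusted p ran from 0.00215 to 1. Apol7d, which shares 292 exon bases on the opposite strand, had under 1 CPM in every library. Reads are counted per gene, so the splice forms of fibronectin, with and without its extra domains, were not told apart.

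Tnc (chromosome 4, 63959785 to 64047015) had 630.3 and 629.7 CPM in normal and 536 and 569 CPM in high glucose. The normal glucose pair was nearly equal and both high glucose libraries were lower, by 12.3% on average (a change of -12.3%). The fitted log2 fold change of -0.19 (SE 0.17, interval -0.58 to 0.21) did not pass the test (adjusted p = 0.991, edgeR). Postn (chromosome 3, 54361109 to 54391037) was scarce, at 3.92 and 4.66 CPM in normal glucose (278 and 203 counts) and 3.25 and 3.02 CPM in high glucose (207 and 234 counts). Its log2 fold change was -0.45 (SE 0.25, interval -1.02 to 0.12, adjusted p = 0.991, edgeR). At this depth the separation of Postn is small: the exact Poisson 95% interval was 3.47 to 4.404 CPM in normal glucose replicate 1 and 2.82 to 3.72 CPM in high glucose replicate 2, for counting error only. Per length, Tnc ranked 484 to 586 of 15577 genes and Postn 11875 to 12689.

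Sparc (chromosome 11, 55394500 to 55423183) had 1978 and 2099 CPM in normal and 1674 and 1918 CPM in high glucose. Sparcl1, also called hevin (chromosome 5, 104079111 to 104113733), had 22.7 and 17.5 CPM in normal and 16.4 and 15.99 CPM in high glucose. Both were lower in each high glucose library, by a narrow margin. The log2 fold change of Sparc was -0.18 (SE 0.18, interval -0.58 to 0.22) and that of Sparcl1 was -0.31 (SE 0.21, interval -0.80 to 0.17), each with an adjusted p of 0.991 (edgeR). The fold change of Sparcl1 was -0.11 without normal glucose replicate 1 and -0.49 without replicate 2, and that of Sparc was -0.076 without high glucose replicate 2 and -0.28 without replicate 4. Per length, Sparc exceeded Sparcl1 by 67.6 to 93.0 times in the 4 libraries.

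**Figure D4:**
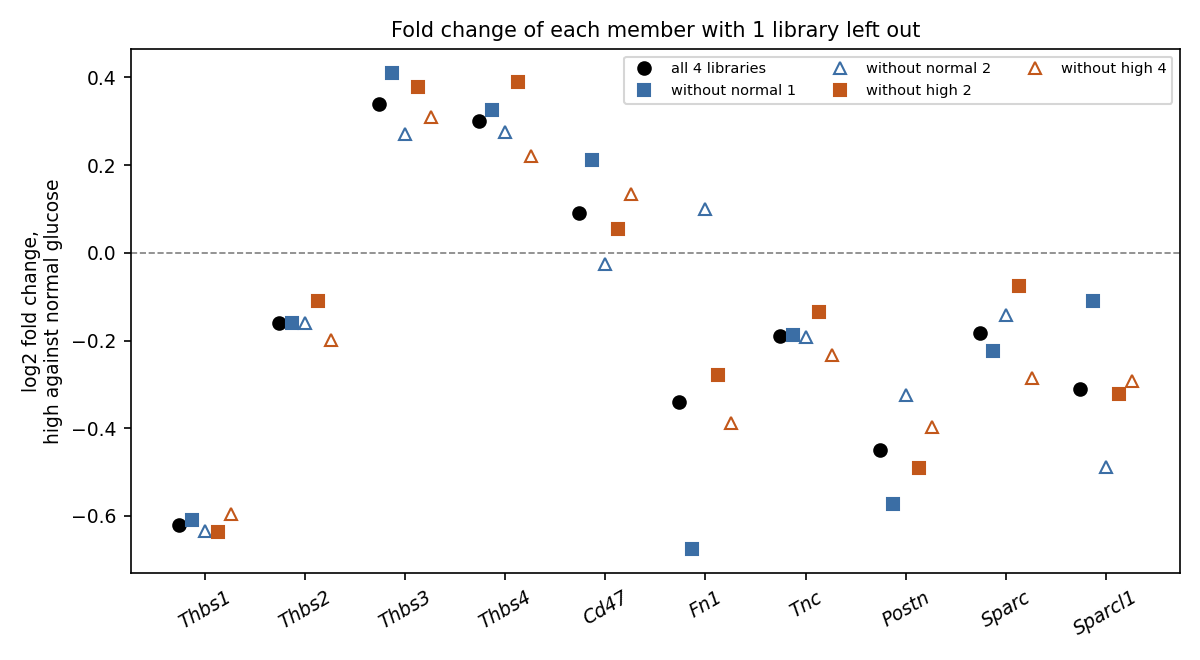
Log2 fold change of each gene, high against normal glucose, with all 4 libraries (black) and with 1 library left out (blue: a normal glucose library, orange: a high glucose library; edgeR). Thbs1 stays between -0.64 and -0.60, while Fn1 runs from -0.68 to 0.10 and Cd47 crosses 0.

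The 5 related gene lists followed the members' partners, and together they held 64 tested genes that are not members. Of these, 0 were called in either direction by edgeR's quasi-likelihood test, while 1 was higher and 7 lower at an unadjusted p under 0.05 (2.22% and 3.23% of all genes). DESeq2 and the exact test each called 3 of the 64, Ctgf and Cyr61 among them and all lower, and limma-voom called 0. Without normal glucose replicate 1, 17 of the 64 were called, where 16.2% of all genes were, and without replicate 2 Ctgf was the 1 called (0.787% of all genes). Below 0 were 42 of the 64, with a median of -0.09, against 8259 of all 16270 genes tested and a median of -0.0045. Normal glucose replicate 2 held the highest value for 30 of the 64, or 46.9%, against 36.5% of all genes.

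Among 17 receptors of the members, 8 lay above 0 and 9 below, with a median log2 fold change of -0.01. Itga6, a laminin-binding integrin chain that also binds thrombospondin, had 96.9 and 88.9 CPM in normal and 58.2 and 67.0 CPM in high glucose (log2 fold change -0.57, SE 0.18, unadjusted p = 0.0126, edgeR). Itga8, a fibronectin and tenascin receptor chain, had 2.34 and 1.12 CPM in normal and 3.63 and 3.37 CPM in high glucose (49 to 261 counts a library). Its log2 fold change was 0.58 without normal glucose replicate 2 and 1.64 without replicate 1. Cd36, which carries the antiangiogenic signal of thrombospondin 1, had 9.45 and 8.14 CPM in normal and 11.1 and 13.5 CPM in high glucose. Itga6 was thus lower, and Itga8 and Cd36 higher, in both high glucose libraries, with adjusted p from 0.679 to 0.931 (edgeR).

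Of 18 other matricellular genes, 16 were tested and 12 of them lay below 0, with a median of -0.29, the lowest of the 5 lists. Ctgf and Cyr61, secreted targets of the YAP pathway, led it. Ctgf had 370 and 658 CPM in normal and 199 and 196 CPM in high glucose (log2 fold change -1.38, SE 0.27, adjusted p = 0.399, edgeR). Cyr61 had 459 and 629 CPM in normal and 285 and 300.1 CPM in high glucose (log2 fold change -0.89, SE 0.21, adjusted p = 0.445, edgeR). For both genes the 2 groups did not overlap, and normal glucose replicate 2 was the highest library. The fold change of Ctgf was -0.91 without that library and -1.74 without normal glucose replicate 1. Tnxb, a tenascin, had 36.4 and 45.1 CPM in normal and 22.8 and 32.8 CPM in high glucose (unadjusted p = 0.0443, edgeR).

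Of 15 TGF-beta ligands, receptors and early targets, 11 lay below 0, with a median of -0.15. The feedback inhibitor Smad7 had 69.3 and 95.7 CPM in normal and 52.5 and 61.3 CPM in high glucose (log2 fold change -0.54, SE 0.21, adjusted p = 0.856, edgeR), and the fold change was -0.29 without normal glucose replicate 2. Ltbp1, which holds latent TGF-beta in the matrix, had 281 and 263 CPM in normal and 214 and 234 CPM in high glucose. Both genes were lower in both high glucose libraries without passing the test over all genes.

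Of 11 matrix partners, 9 lay below 0, with a median of -0.08. Lox, the collagen and elastin cross-linking enzyme, had 1827 and 2729 CPM in normal and 1231 and 1381 CPM in high glucose (log2 fold change -0.80, SE 0.22, adjusted p = 0.555, edgeR). Without normal glucose replicate 2 the fold change of Lox was -0.49. Col1a1 had 1811 and 2941 CPM in normal and 1215 and 2000 CPM in high glucose, and Col5a1 had 337 and 485 CPM in normal and 264 and 347 CPM in high glucose. The groups of both collagens overlapped, and normal glucose replicate 2 was again their highest library, as for Fn1.

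Of 5 nitric oxide and cGMP genes, the pathway that CD47 restrains, 4 lay above 0, with a median of 0.33 (that of Gucy1a3). Prkg1, the highest of the list, lay below 0 (log2 fold change -0.10, SE 0.21). It had 9.08 and 8.95 CPM in normal and 8.40 and 8.45 CPM in high glucose. The levels were low: the guanylate cyclase subunits Gucy1a3 and Gucy1b3 had 10 to 17 and 4 to 22 counts a library, and Nos3 had 0.620 to 0.761 CPM. Pde5a, which breaks down cGMP, had 4.65 and 2.84 CPM in normal and 5.68 and 4.93 CPM in high glucose (unadjusted p = 0.127, edgeR). A difference in the cyclase subunits was not detectable at this depth (intervals of the log2 fold change from -1.12 to 1.78 for Gucy1a3 and from -0.80 to 2.40 for Gucy1b3).

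**Figure D5:**
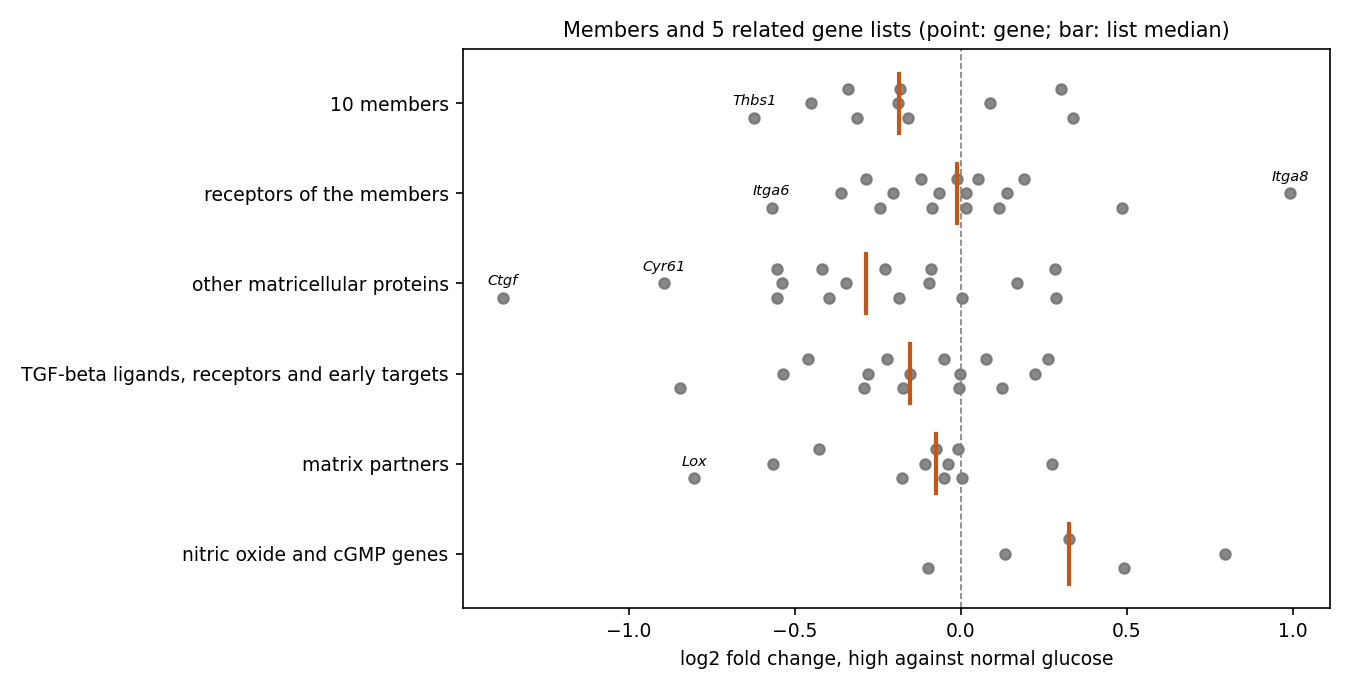
Log2 fold change, high against normal glucose, of the 10 members and of the tested genes of 5 related lists (points: genes, bars: list medians). The list of other matricellular proteins has the lowest median (-0.29), with Ctgf and Cyr61 at its left end, and no gene shown passed the adjusted test.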

How the data were processed

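RNA of 2 normal and 2 high glucose libraries was analysed from the deposited whole-number counts per gene symbol. TopHat, edgeR and mm10 are named in the submitters' processing notes. Versions, the counting tool, its annotation and its strand setting were not given in the sources used here. The files have 23282 rows and 23238 symbols, and rows sharing a symbol were summed. Genes were tested with edgeR 4.0.16 (quasi-likelihood test, two-sided, TMM, filterByExpr, group as the only term) in R 4.3.3, with Benjamini-Hochberg adjustment over 16270 genes. SEs were taken from the fold change and the F statistic. Alternatives used other scalings, filters and tests (DESeq2 1.42.0, limma 3.58.1, the exact test), or left out each library; edgeR's newer quasi-likelihood method was added after the data were seen. Lengths and positions are from GENCODE release M21, and the members shared at most 4.65% of their 32-base stretches with another gene. The fit was tested on simulated counts. Members and lists were chosen with earlier results of these data known. Named were all members, the 3 genes with the smallest p of each related list, and the 2 highest markers of each cell type with Pecam1 and Cdh5. Comp, Nos3, Prkg1, Cldn5, Mtx1, Apol7d and Gm29233 were named after their values were seen. Some genes the naming rule takes are not reported here.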

Additional observations from a re-analysis of the deposited data

How the results depend on the processing

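With 2 libraries a group, the fold changes of 8 members kept their sign under every alternative that was run. These 8 are the members whose groups did not overlap, so leaving out a library could hardly reverse them. Other scalings and tests reused the same libraries, so the kept signs are no separate support. The fold changes of Fn1 and Cd47 kept their sign except without normal glucose replicate 2 (0.10 and -0.025). With each library left out in turn, Fn1 ran from -0.68 to 0.10, Cd47 from -0.025 to 0.21 and Gucy1a3 from -0.014 to 0.68. Postn could not be fitted with a mean of at least 5 CPM required, since it fell under it. Counts of calls over all genes were 2 higher and 0 lower, against 33 and 32 with DESeq2, 56 and 56 with edgeR's exact test, and 62 and 65 with no filter on low counts. Upper quartile scaling called 3 higher. With each library left out in turn, 20 to 1262 genes were called higher and 12 to 1446 lower, the most without normal glucose replicate 1. The members called were 0, and 0 to 2 with a library left out (Thbs1 and Fn1, without normal glucose replicate 1). The related genes called were 0, against 3 with DESeq2, 3 with the exact test, 4 with no filter (Lox, Ctgf and Cyr61 among them) and 0 to 17 with a library left out. The cause of these differences was not tested. No paired analysis was possible because just 1 replicate number, 2, occurs under both conditions. Per length, the longest transcript in place of the union of exons put Sparc above Thbs1 and kept the order of the other 8.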
